A study of Mus musculus with 106 samples.

Results

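The genes described here are 10 genes of glucose uptake, glycolysis and glycogen breakdown, taken by gene symbol from the 18193 genes that the array measured with a probe set of 1 symbol: Slc2a1, Slc2a3, Hk1, Hk2, Pfkl, Pfkp, Pgk1, Pkm, Ldha and Pygl. They were followed in single mouse cells, 1 cell per array, of 11 groups. The knockout groups were 20 cells at the late-streak/no-bud stage (LS/0B) and 12 cells at the early/mid-bud stage (E/MB) of Blimp1 (-/-) embryos, picked for the transcript of the null allele and for Oct4 (Pou5f1). All other groups were wild type. They were, along the germ line, 8 pre-streak (PS) posterior epiblast cells (Oct4+, T+), 7 early/mid-streak (E/MS) and 17 LS/0B precursors (Blimp1+, Oct4+), and primordial germ cells (PGCs; Blimp1+, stella+), 8 each at E/MB, at the early head fold (EHF) and at embryonic day 8.25 (E8.25). Beside the germ line stood 4 Blimp1+ Hoxb1+ cells at E/MB and 4 at EHF, and 10 posterior mesoderm cells from the base of the allantois at E/MB (Blimp1-, Oct4+, Hoxb1+). The 4 EHF Blimp1+ Hoxb1+ cells are placed at EHF by their source name and description, whereas their titles name E/MB. The strain was C57BL/6 throughout. Blimp1, encoded by Prdm1, is a transcriptional repressor needed to form PGCs, the embryonic founders of eggs and sperm, and stella is the product of Dppa3.

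Glycolysis turns glucose into pyruvate with a small gain of ATP. Glucose enters the cell through transporters of the Slc2a family, a hexokinase traps it as a phosphate, phosphofructokinase commits it to the pathway, phosphoglycerate kinase and pyruvate kinase return ATP, and lactate dehydrogenase turns pyruvate into lactate. Glycogen phosphorylase feeds in from the side, since it releases glucose phosphate from stored glycogen. Epiblast cells after implantation and the stem cell lines made from them are known for high glycolysis, and the PGCs of birds and humans are known for their glycogen stores.

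Values are log2 array signal in the deposited MAS5 scale, with signals under a background floor of 70.2 (6.13 in log2) raised to it. Detection in a cell means a signal above the 95th percentile of 126 probe sets for olfactory, vomeronasal and taste receptors and hair keratin-associated proteins in that cell. No embryo or litter is named for any cell, so each group is 1 sample: errors are the SD over cells, no test is given, and a difference of at least 1 log2 unit between group means is only a statement of size. Levels of different genes come from different probes and are not set against each other. In signal per cell, less RNA of a gene and a lower yield of its cDNA cannot be told apart.

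Pou5f1 was detected in every cell, Dppa3 in 8 of 8 cells of each PGC group and 0 of 10 mesoderm cells, and Hoxb1 in 0 of 8 cells of each PGC group and 10 of 10 mesoderm cells. Prdm1 was detected in 8 of 8 cells of each PGC group, 7 of 7 E/MS and 16 of 17 LS/0B precursors, 4 of 4 E/MB and 3 of 4 EHF Blimp1+ Hoxb1+ cells and 0 of 10 mesoderm cells. It was detected in 12 of 20 LS/0B and 9 of 12 E/MB knockout cells, which were picked for the transcript of the null allele. Of the 4 EHF Blimp1+ Hoxb1+ cells 1 had Dppa3, and T was not analysed here. Of the markers of visceral endoderm, trophoblast and blood or endothelium, Elf5, Gata1, Pecam1 and Hbb-y were detected in 0 cells. The trophoblast gene Ascl2 was low but was detected in every group. It was detected in 10 of 10 mesoderm cells (7.61 ± 0.38), 14 of 17 LS/0B and 6 of 7 E/MS precursors, 3 of 8 E/MB PGCs and 11 of 20 LS/0B knockout cells. Krt7 and Amn were detected in at most 3 cells of any group. The visceral endoderm gene Apoa1 was low but was detected in 10 of 20 LS/0B and 10 of 12 E/MB knockout cells, against 4 of 17 LS/0B precursors and 1 of 8 E/MB PGCs. Ttr, another such gene, was detected in 4 of 17 LS/0B precursors. Visceral endoderm markers, summed over 4 genes, reached 24.97 to 27.52 in the LS/0B knockout cells and 24.53 to 27.98 in the LS/0B precursors. They reached 25.46 to 30.28 in the EHF Blimp1+ Hoxb1+ cells, with Apoa1 in 4 of 4, Afp in 2 of 4 and Ttr in 1 of 4. In the E/MB Blimp1+ Hoxb1+ cells they reached 24.98 to 27.11, with Apoa1 in 3 of 4, and in mesoderm 24.53 to 28.3. The endothelial gene Kdr, which early mesoderm also uses, was detected in 9 of 20 LS/0B knockout cells (7.85 ± 2.11) and 6 of 17 LS/0B precursors (7.63 ± 2.12). It was detected in 0 of 8 E/MB PGCs and in 4 of 7 E/MS precursors. The 4 blood and endothelium genes summed to 24.53 in all E/MB PGCs, against 24.53 to 29.74 in LS/0B precursors. The 4 trophoblast genes summed to 30.22 to 32.58 in E/MB PGCs, against 25.2 to 31.82 in LS/0B precursors; of them Tfap2c, a gene that PGCs also use, was detected in 8 of 8 and 10 of 17 cells. The part of these other cell types' genes in the results was not tested. Groups also differed in a pair of genes outside the pathway. Abca4 was detected in all cells from PS epiblast to E8.25 PGCs, in 0 of 20 LS/0B and 1 of 12 E/MB knockout cells, in 0 of 4 Blimp1+ Hoxb1+ cells at either stage, and in 6 of 10 mesoderm cells. Ppp2cb, by contrast, was detected in 19 of 20 and 11 of 12 knockout cells, all Blimp1+ Hoxb1+ cells and 8 of 10 mesoderm cells, against 6 of 17 LS/0B precursors and 0 of 8 E/MB PGCs. Mesoderm arrays also had brighter hybridisation controls, 11.07 ± 0.33 (SD, n = 10) against 9.61 ± 0.28 in the other 96 cells. No label names a batch. The knockout and Blimp1+ Hoxb1+ groups thus stood apart from the wild-type lineage in both genes, and mesoderm was mixed. Differences in kind of cell and between arrays cannot be told apart for these groups. Sex differed too: Xist was detected in 8 of 8 PS epiblast cells, 8 of 17 LS/0B precursors and 5 of 8 EHF PGCs, and in 0 cells of the E/MS precursors, the E/MB and E8.25 PGCs, the knockout groups and the mesoderm.

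RefSeq promoter windows on GRCm38.p6 were at hand for 9 of the 10 genes, with 12 windows in all; Slc2a3 had no entry. They are shown for the 3 genes whose signal differed by at least 1 log2 unit between the LS/0B precursors and the E/MB PGCs and that had a window. Capitals mark the hypoxia response core ACGTG or GCGTG on either strand, the short element that hypoxia-inducible factors read in many glycolytic genes. Each window holds 300 bases around the annotated start and is written 5′ to 3′ along the gene.

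Pygl, chr12:70227634-70227933, minus strand: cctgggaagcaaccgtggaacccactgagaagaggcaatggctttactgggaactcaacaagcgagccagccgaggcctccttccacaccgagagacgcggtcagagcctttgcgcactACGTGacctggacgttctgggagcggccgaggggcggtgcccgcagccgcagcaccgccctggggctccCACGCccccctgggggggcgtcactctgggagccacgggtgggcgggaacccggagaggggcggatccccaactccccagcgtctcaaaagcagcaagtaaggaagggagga

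Slc2a1, chr4:119108495-119108794, plus strand: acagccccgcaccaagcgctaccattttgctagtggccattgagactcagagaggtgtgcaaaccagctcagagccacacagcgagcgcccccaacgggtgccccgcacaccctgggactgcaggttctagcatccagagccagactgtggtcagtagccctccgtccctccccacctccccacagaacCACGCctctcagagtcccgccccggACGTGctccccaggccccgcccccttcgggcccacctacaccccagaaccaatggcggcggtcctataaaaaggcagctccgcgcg

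Hk2, chr6:82774405-82774704, minus strand: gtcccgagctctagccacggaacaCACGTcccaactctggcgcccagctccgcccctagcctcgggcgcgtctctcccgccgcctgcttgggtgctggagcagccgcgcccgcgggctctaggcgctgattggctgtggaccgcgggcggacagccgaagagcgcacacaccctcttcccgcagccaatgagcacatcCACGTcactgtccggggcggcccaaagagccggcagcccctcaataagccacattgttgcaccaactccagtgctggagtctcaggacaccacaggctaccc

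Each of these 3 windows held 2 matches. Over the whole list the core stood in 10 of 12 windows and in at least 1 window of 9 of 9 genes, against 43.8% of all 32851 windows and 46.7% of genes. The core is short, and overlapping copies on both strands were each counted. The Blimp1 core AGNGAAAG, searched on both strands, was in 0 of the 12 windows, against 8.63% of all windows. These are letters in the windows, and the arrays do not measure binding.

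Pygl, the liver form of glycogen phosphorylase, was the gene of the list with the largest range of group means (4.2 log2 units). Its lowest, median and highest signals were 6.13, 6.13 and 7.70 in PS epiblast, 6.13, 6.13 and 7.83 in E/MS precursors, and 6.13, 6.13 and 9.30 in LS/0B precursors. In PGCs they were 7.21, 10.11 and 10.83 at E/MB, 9.29, 10.33 and 11.15 at EHF, and 9.29, 10.32 and 11.02 at E8.25. Pygl was thus detected in all 8 cells of each PGC group, but in 1 of 8 PS epiblast cells, 3 of 7 E/MS and 8 of 17 LS/0B precursors. Group means were 10.34 ± 0.55 in E8.25 PGCs and 6.39 ± 0.56 in PS epiblast (SD, n = 8 each), a difference of 3.95, and the cells of these groups did not overlap. As 6 of 8 PS epiblast cells lay at the floor, the size depended on it: the difference was 6.28 without a floor and 3.33 with a higher one. The step between LS/0B and E/MB held most of it, with 9.57 ± 1.43 in E/MB PGCs (n = 8) and 7.09 ± 1.16 in LS/0B precursors (n = 17), a difference of 2.48. Ranges overlapped there, because E/MB PGCs 3 and 8 stood at 7.44 and 7.21, under the highest precursors. The PGCs were picked for stella and the precursors were not (Dppa3 in 8 of 17), so stage and choice of cell cannot be told apart at this step. The later steps were small, +0.70 at EHF over E/MB and +0.07 at E8.25 over EHF, both under the SD over cells.

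Outside the germ line Pygl stayed at or near the floor in most cells. All 10 mesoderm cells stood at the floor, so that E/MB PGCs were at least 6.13-fold higher, measured against the detection limit of each mesoderm cell. The 4 E/MB Blimp1+ Hoxb1+ cells had 6.13, 6.13, 6.13 and 6.98, and the 4 EHF ones had 6.13, 6.13, 6.13 and 8.24. The EHF cell at 8.24 was also the only one of its group with Dppa3 (7.01), and it had Xist. In both comparisons at E/MB the PGCs lay above every cell of the other group. The Blimp1+ Hoxb1+ cells stood apart from the wild-type lineage in Abca4 and Ppp2cb, and mesoderm was mixed. The part of the arrays in these Pygl differences was not tested. Without a floor the differences of E/MB PGCs were 6.10 from mesoderm and 5.14 from Blimp1+ Hoxb1+ cells, in place of 3.44 and 3.23.

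In Blimp1 knockout cells Pygl was low at both stages. It had a lowest, median and highest signal of 6.13, 6.13 and 9.17 in the 12 E/MB knockout cells, against 7.21, 10.11 and 10.83 in the 8 E/MB PGCs. The means were 6.77 ± 1.13 in knockout cells (3 of 12 detected) and 9.57 ± 1.43 in PGCs (8 of 8), a difference of -2.80 that was -4.57 without a floor. The PGCs of this comparison were picked for stella and the knockout cells were not, so genotype and choice of cell cannot be told apart. One stage earlier the cells of both genotypes were picked for a Blimp1 transcript and Oct4, and Pygl had 6.83 ± 0.92 in knockout cells (8 of 20 detected) and 7.09 ± 1.16 in LS/0B precursors (8 of 17), a difference of -0.26 that was under the SD over cells. All knockout cells lacked Xist, and against the precursors without Xist the difference was 0.29.

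**Figure D1:**
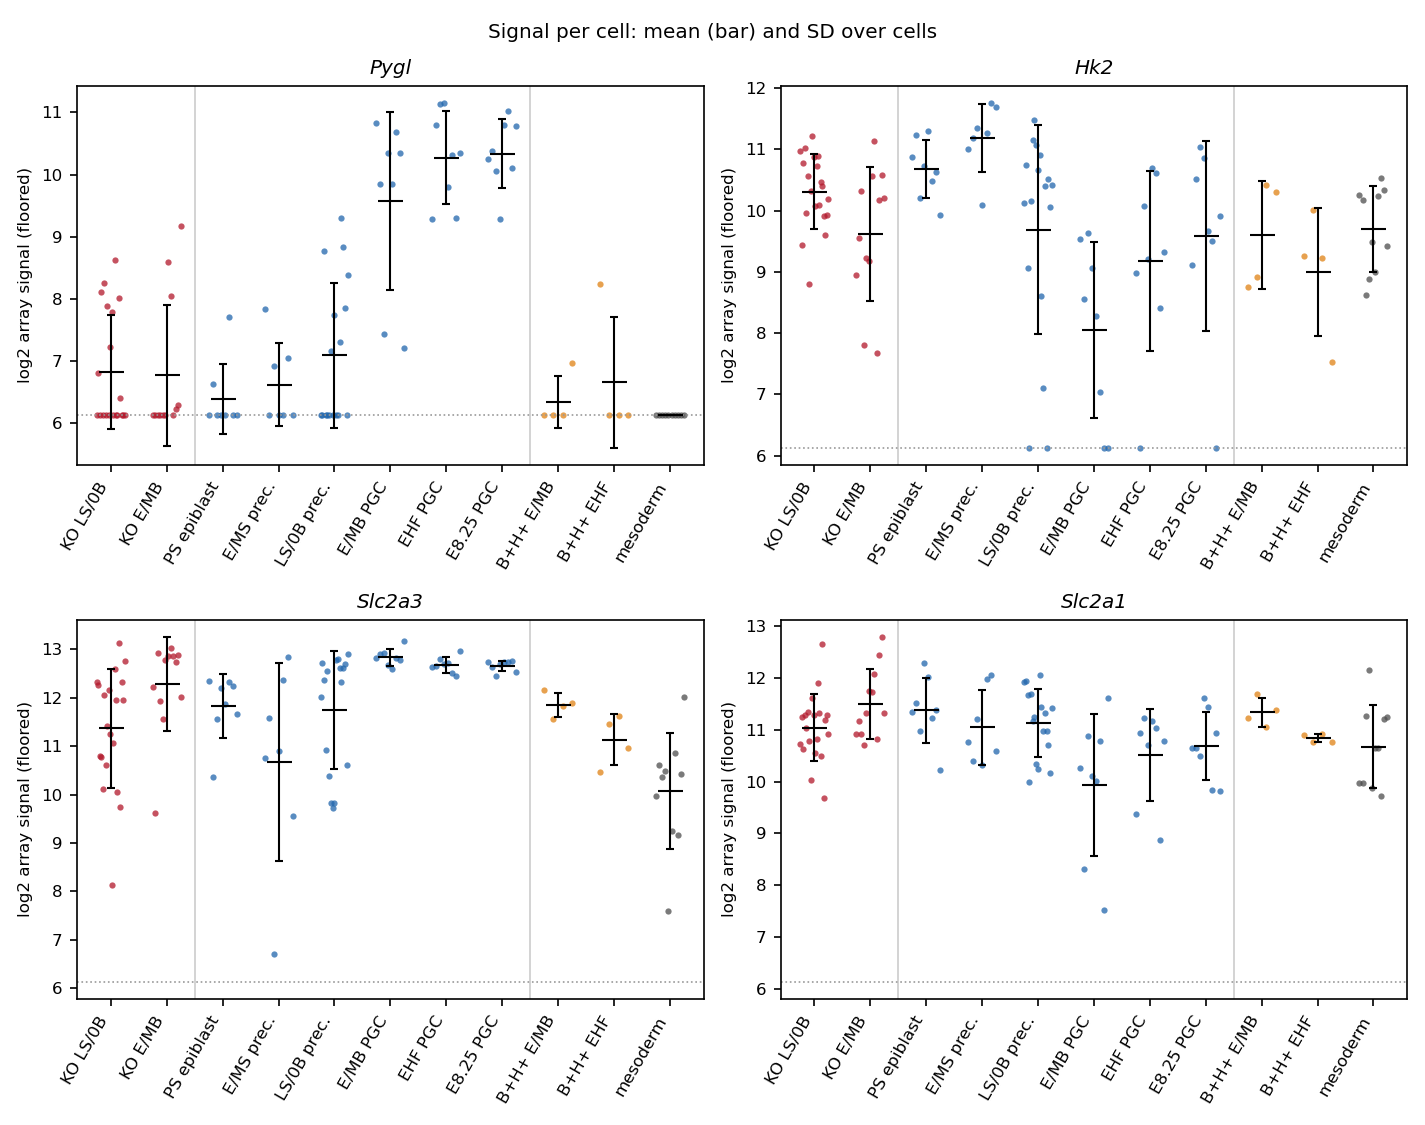
Log2 signal (floored) of Pygl, Hk2, Slc2a3 and Slc2a1 in every cell by group; each point is 1 cell, horizontal bars and whiskers are the mean and SD over cells, and the dotted line is the floor. Scales differ between panels. Pygl is high in all 3 PGC groups, Slc2a3 is narrow and high there, and Slc2a1 and Hk2 have their lowest group means in E/MB PGCs.

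Within the LS/0B precursors both Pygl and Dppa3 were detected in some cells and not in others. Pygl and Dppa3 were detected together in 5 of 17 cells, Pygl without Dppa3 in 3, Dppa3 without Pygl in 3 and neither in 6. Among the 20 LS/0B knockout cells the counts were 0 with both, 8 with Pygl without Dppa3, 0 with Dppa3 without Pygl and 12 with neither. Dppa3 was thus detected in none of these 20 cells, with or without Pygl. Among the 12 E/MB knockout cells 1 had both, 2 had Pygl without Dppa3, 3 had Dppa3 without Pygl and 6 had neither. Among the 7 E/MS precursors the counts were 0, 3, 3 and 1. Pygl went with Xist in the precursors: Pygl was detected in 6 of 8 cells with Xist, at a mean of 7.71 ± 1.16, and in 2 of 9 without, at 6.54 ± 0.90. Precursors 1 to 8 all lacked Xist, and of the later-numbered ones only 16 did. Precursors 18, 19, 20, 22 and 24, with Dppa3 at 9.88 to 11.44, all had Xist, and without Xist Dppa3 reached 9.29. Sex, replicate number and Dppa3 level thus cannot be told apart here. E/MB PGCs, which all lacked Xist, had Pygl higher by 3.03 than the LS/0B precursors without Xist. Over all cells the 3 genes with the highest Pearson correlation to Pygl were Dppa3 (0.78), Npnt (0.77) and Slc40a1 (0.75), out of 9152 genes detected in at least 25% of cells. Npnt encodes the matrix protein nephronectin and Slc40a1 the iron exporter ferroportin. The cells share their groups, and Dppa3 was used to pick the PGCs, so these values are descriptions.

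**Figure D2:**
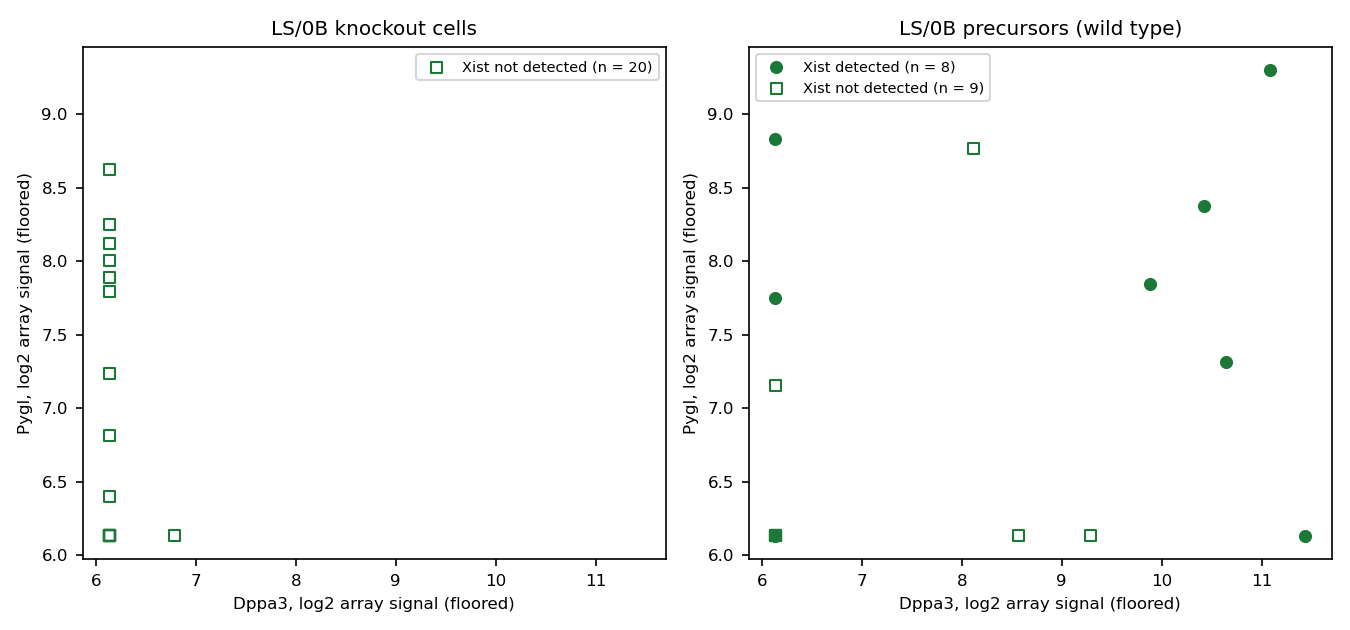
Log2 signal of Pygl against that of Dppa3 in each LS/0B knockout cell (left) and each LS/0B precursor (right); filled circles are cells with Xist and open squares cells without, and cells at the floor on both axes lie on each other. Pygl is detected in 8 of 20 knockout cells and 8 of 17 precursors, and Dppa3 in 0 of 20 and 8 of 17.

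The mean of the glucose transporter gene Slc2a3 was higher and that of Slc2a1 lower in E/MB PGCs than in LS/0B precursors, each by less than the larger SD over cells. Slc2a3 encodes GLUT3, a high-affinity transporter known from neurons, and Slc2a1 encodes GLUT1, the transporter of most growing cells. For Slc2a3 the lowest, median and highest signals were 12.59, 12.82 and 13.17 in E/MB PGCs, against 9.73, 12.36 and 12.90 in LS/0B precursors. Means were 12.83 ± 0.17 in these PGCs and 11.74 ± 1.21 in the precursors, a difference of 1.09 that was 0.60 with averaged probe sets. The PGCs sat in a narrow band at the upper end of the precursors' wide range, with overlap. Leaving out LS/0B precursor 7, 8 or 14, each under 10, gave 0.97, 0.96 and 0.97. The LS/0B precursors with Dppa3 had Slc2a3 at 12.32 to 12.90, and those without had 9.73 to 12.61. The PGCs were picked for stella and the precursors were not, so stage and choice of cell cannot be told apart for either transporter. Slc2a3 stayed in the narrow band of the E/MB PGCs, at 12.68 ± 0.16 in EHF PGCs and 12.66 ± 0.11 in those of E8.25. All E8.25 PGCs lay above all PS epiblast cells (11.82 ± 0.66), by 0.83 in the means. The dip to 10.67 ± 2.05 in E/MS precursors, 1.15 under PS epiblast, rested mainly on E/MS precursor 3 at 6.71: without it the difference was -0.49, and that of LS/0B over E/MS was 0.41 in place of 1.07. Without E/MS precursor 7 they were -0.97 and 0.89.

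Slc2a1 ran from 7.52 through a median of 10.18 to 11.61 in E/MB PGCs, against 9.99, 11.25 and 12.05 in LS/0B precursors. It averaged 9.94 ± 1.37 in the PGCs and 11.14 ± 0.65 in the precursors, a difference of -1.20 that was within the SD over cells. E/MB PGCs 2 and 7, at 8.30 and 7.52, weighed on it, since leaving out PGC 2 gave -0.97 and leaving out PGC 7 gave -0.86. Slc2a1 was 10.51 ± 0.89 in EHF and 10.68 ± 0.66 in E8.25 PGCs, against 11.38 ± 0.63 in PS epiblast. All 3 probe sets of Slc2a1 gave the same direction (-1.20 to -1.26 between E/MB PGCs and LS/0B precursors). Of the 4 probe sets of Slc2a3, 2 were detected in 0 cells, and the other bright one gave 1.30 where the one used gave 1.09. Over all cells Slc2a1 and Slc2a3 had a correlation of 0.20, and of 0.39 after group means were removed.

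Taken within each cell, Slc2a3 minus Slc2a1 gives 1 number that has no absolute meaning but can be compared between groups. It averaged 0.45 ± 0.85 in PS epiblast, -0.38 ± 1.95 in E/MS and 0.61 ± 0.96 in LS/0B precursors, then 2.90 ± 1.31, 2.16 ± 0.82 and 1.98 ± 0.62 in E/MB, EHF and E8.25 PGCs. Every PGC had a value of at least 1.08. In E/MB PGCs the lowest was 1.56, above the highest of the mesoderm cells (0.76) and of the E/MB Blimp1+ Hoxb1+ cells (0.94). The shift between group means was 2.29 over LS/0B precursors, 3.50 over mesoderm and 2.38 over E/MB Blimp1+ Hoxb1+ cells. E/MB knockout cells had 0.78 ± 0.96 (n = 12), a shift of -2.11 against E/MB PGCs, with overlapping ranges (highest knockout cell 2.03).

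**Figure D3:**
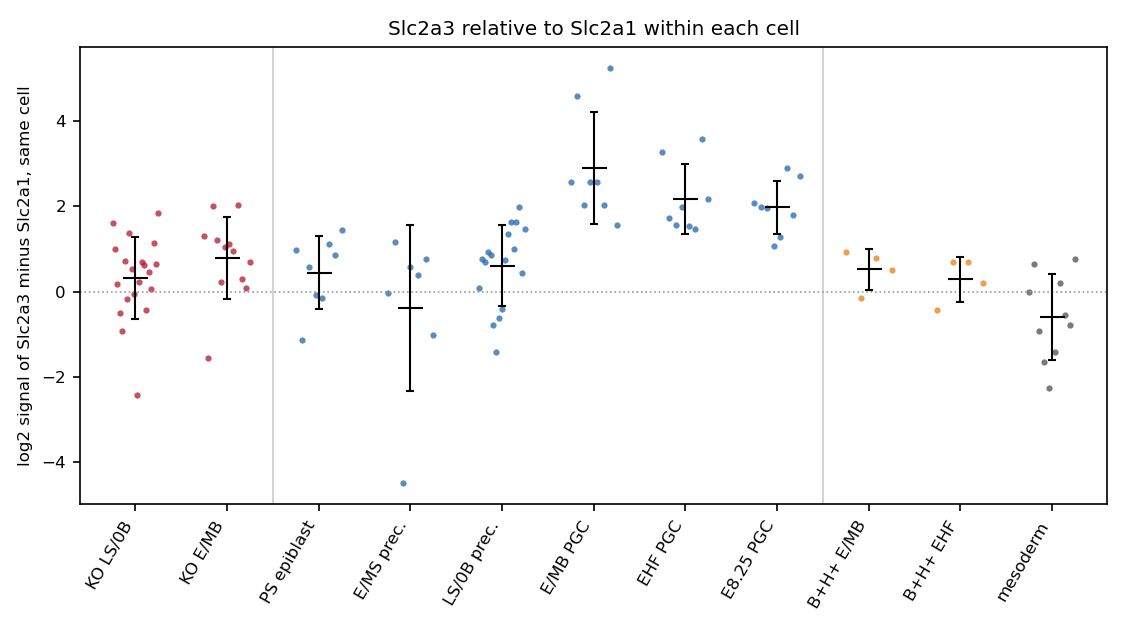
Log2 signal of Slc2a3 minus that of Slc2a1 within the same cell, by group; points are cells, bars and whiskers the mean and SD over cells, and the dotted line marks equal signal of the probe sets. All 24 PGCs lie at or above 1.08, while mesoderm, Blimp1+ Hoxb1+ and most knockout and precursor cells lie lower.

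Against cells outside the germ line the transporters differed as well. Slc2a3 was 12.83 ± 0.17 in E/MB PGCs and 10.07 ± 1.19 in mesoderm (n = 10), a difference of 2.76 without overlap that was 1.49 with averaged probe sets. The 4 E/MB Blimp1+ Hoxb1+ cells had Slc2a3 signals of 11.55, 11.83, 11.88 and 12.16, all under the lowest E/MB PGC, and the 4 EHF ones had 10.47, 10.97, 11.46 and 11.63. Slc2a1 averaged 9.94 ± 1.37 in E/MB PGCs, against 11.05, 11.22, 11.38 and 11.70 in the E/MB Blimp1+ Hoxb1+ cells, a difference of -1.40 with overlap. In E/MB knockout cells Slc2a1 was 11.50 ± 0.67, against 9.94 ± 1.37 in E/MB PGCs, a difference of 1.56, while Slc2a3 was 12.28 ± 0.97 against 12.83 ± 0.17. At LS/0B neither transporter differed by more than its SD between knockout cells and precursors (-0.37 for Slc2a3 and -0.09 for Slc2a1). The 3 genes most like Slc2a3 over all cells were Cd24a (0.75), Dag1 (0.70) and Parp9 (0.64), and those most like Slc2a1 were Gm3716 (0.71), Podxl (0.51) and the glycolytic enzyme gene Tpi1 (0.51).

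Hexokinase 2 is the inducible hexokinase encoded by Hk2. The Hk2 mean was lower in LS/0B than in E/MS precursors, lowest in E/MB PGCs and partly higher again in later PGCs. Each step between neighbouring stages was under the larger SD over cells, with overlapping ranges. The PGCs were picked for stella and the precursors were not, so stage and choice of cell cannot be told apart between them. Lowest, median and highest signals were 9.93, 10.68 and 11.30 in PS epiblast and 10.09, 11.27 and 11.75 in E/MS precursors. They were 6.13, 10.40 and 11.49 in LS/0B precursors, where 3 of 17 cells fell under the detection limit. In PGCs they were 6.13, 8.42 and 9.64 at E/MB, 6.13, 9.27 and 10.69 at EHF and 6.13, 9.79 and 11.04 at E8.25, with 5, 7 and 7 of 8 cells detected. The means of 8.05 ± 1.44 in E/MB PGCs and 9.69 ± 1.71 in LS/0B precursors differed by -1.64, and those of 9.18 ± 1.47 in EHF PGCs and 8.05 ± 1.44 in E/MB PGCs by 1.13. The difference at EHF was 0.35 when cells with Xist were left out, and between 0.86 and 0.99 without EHF PGC 5 or 6 or E/MB PGC 6, 7 or 8. Over the whole path Hk2 was 1.08 lower in E8.25 PGCs (9.59 ± 1.55) than in PS epiblast (10.68 ± 0.47), of which E8.25 PGC 7, at the floor, made much: without it the difference was -0.59, and without PS epiblast cell 5 it was -0.995.

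Hk2 was detected in every cell of the mesoderm, the Blimp1+ Hoxb1+ and the knockout groups. E/MB PGCs stood 1.65 below mesoderm (9.70 ± 0.70) and 1.55 below the E/MB Blimp1+ Hoxb1+ cells, whose values were 8.75, 8.92, 10.30 and 10.42. The EHF Blimp1+ Hoxb1+ cells had 7.54, 9.22, 9.26 and 10.01. E/MB knockout cells averaged 9.62 ± 1.09 and E/MB PGCs 8.05 ± 1.44, a difference of 1.57 with overlap. At LS/0B all 20 knockout cells had Hk2 (10.31 ± 0.61), and the difference of 0.62 from the precursors was within the SD. The genes most like Hk2 were Pmaip1 (0.51), Pcbp2 (0.49) and Pno1 (0.48).

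Hexokinase 1, the constitutive form encoded by Hk1, was detected in only 28 cells of all groups by its brighter probe set and in 0 by the other. It passed the limit in at most 4 cells of any wild-type lineage group and reached its highest group mean in EHF PGCs (7.66 ± 1.76), 1.17 over E/MB PGCs (6.48 ± 0.84). All 4 EHF PGCs with Hk1 were among the 5 with Xist, and the 3 without Xist stood at the floor. Without the cells with Xist the difference was -0.35, and leaving out EHF PGC 4, 6 or 7 gave 0.97, 0.82 and 0.88. No gene followed Hk1 closely (r at most 0.39).

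The phosphofructokinase genes were Pfkl, the liver form, and Pfkp, the platelet form. Pfkl was detected in every cell. Its means were 11.60 ± 0.33 in PS epiblast, 11.70 ± 0.25 in E/MS and 11.63 ± 0.34 in LS/0B precursors, and 11.15 ± 0.46, 10.21 ± 1.43 and 10.88 ± 0.92 in E/MB, EHF and E8.25 PGCs. The lowest PGC, EHF PGC 4, had 7.00. Pfkl was the member with the largest difference between knockout cells (10.89 ± 0.57, n = 20) and precursors (11.63 ± 0.34, n = 17) at LS/0B, at -0.74, which was larger than the SD over cells although the ranges overlapped. Only 221 of 18193 genes had a larger negative one, and the other bright Pfkl probe set gave -1.08. These groups also differed in Abca4 and Ppp2cb, and the part of the arrays was not tested. Pfkp was detected in 56 cells, with group means between 6.45 and 7.85 and cells spread down to the floor. Its difference of 1.33 between E8.25 PGCs (7.78 ± 1.99) and EHF PGCs (6.45 ± 0.40) rested on a few bright cells, since leaving out E8.25 PGC 3 or 4 gave 0.95 and 0.92.

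The genes of the lower pathway, Pgk1, Pkm and Ldha, were detected in every cell, and their means were lower in PGCs than in the earlier lineage stages. The amounts were under 1 log2 unit, save for Pgk1 in EHF PGCs against PS epiblast, which differed by 1.003. Ldha encodes the muscle-type subunit of lactate dehydrogenase. Its lowest, median and highest signals were 13.04, 13.14 and 13.24 in PS epiblast, 12.96, 13.17 and 13.21 in E/MS and 12.84, 13.11 and 13.24 in LS/0B precursors. In PGCs they were 12.52, 12.73 and 12.86 at E/MB, 12.03, 12.31 and 12.68 at EHF and 12.30, 12.50 and 13.05 at E8.25. The E/MB PGC mean of 12.70 ± 0.14 was 0.38 below that of the LS/0B precursors (13.09 ± 0.12), more than the larger SD, and EHF PGCs (12.35 ± 0.21) were lower by another 0.35. All E/MB PGCs lay below the 4 E/MB Blimp1+ Hoxb1+ cells, at 12.95, 12.99, 13.02 and 13.08. The EHF Blimp1+ Hoxb1+ cells lay at 12.86, 12.86, 12.87 and 12.88. Knockout cells were at 12.98 ± 0.14 at E/MB, 0.28 over E/MB PGCs, and at 13.10 ± 0.08 at LS/0B, 0.01 over the precursors.

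Pgk1, the X-linked gene of phosphoglycerate kinase, had means of 12.83 ± 0.10, 12.81 ± 0.20 and 12.66 ± 0.19 in PS epiblast, E/MS and LS/0B precursors, and 12.11 ± 0.44, 11.82 ± 0.26 and 12.16 ± 0.36 in E/MB, EHF and E8.25 PGCs. The other Pgk1 probe sets, also detected in every cell, gave smaller differences in the same direction. For E8.25 PGCs against PS epiblast they gave -0.39 and -0.38 where the one used gave -0.66. For E/MB PGCs against LS/0B precursors they gave -0.38 and -0.42 where the one used gave -0.55. The Pgk1 level did not follow Xist in the LS/0B precursors, with 12.67 ± 0.16 in 8 cells with Xist and 12.65 ± 0.22 in 9 without. Pkm, which encodes the pyruvate kinase of most embryonic cells, had means of 12.48 ± 0.15 in PS epiblast, 12.36 ± 0.23 and 12.46 ± 0.15 in E/MS and LS/0B precursors, and 12.20 ± 0.18, 11.86 ± 0.22 and 12.20 ± 0.26 in E/MB, EHF and E8.25 PGCs. Its splice forms were not separated here. E/MB PGCs and mesoderm had nearly equal means, with Pgk1 at 12.11 ± 0.44 in PGCs and 12.14 ± 0.46 in mesoderm and Pkm at 12.20 ± 0.18 in PGCs and 12.23 ± 0.09 in mesoderm, a difference of -0.03 for each. Pkm was 12.09 ± 0.15 in E/MB Blimp1+ Hoxb1+ cells, under the E/MB PGCs by less than the SD, and its lowest group mean was that of the EHF Blimp1+ Hoxb1+ cells (11.78 ± 0.13). At LS/0B Pkm was 12.13 ± 0.18 in knockout cells and 12.46 ± 0.15 in precursors, and this difference of -0.34 exceeded the SD. For all 3 genes the group mean was lowest at EHF among the PGC groups and higher by 0.26 to 0.34 at E8.25. Ranges overlapped, and only the Pkm difference exceeded the larger SD. Xist was detected in 5 of 8 EHF PGCs and in 0 of 8 at E8.25. Against the EHF PGCs without Xist the differences were 0.22 for Pgk1, 0.46 for Pkm and 0.25 for Ldha.

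**Figure D4:**
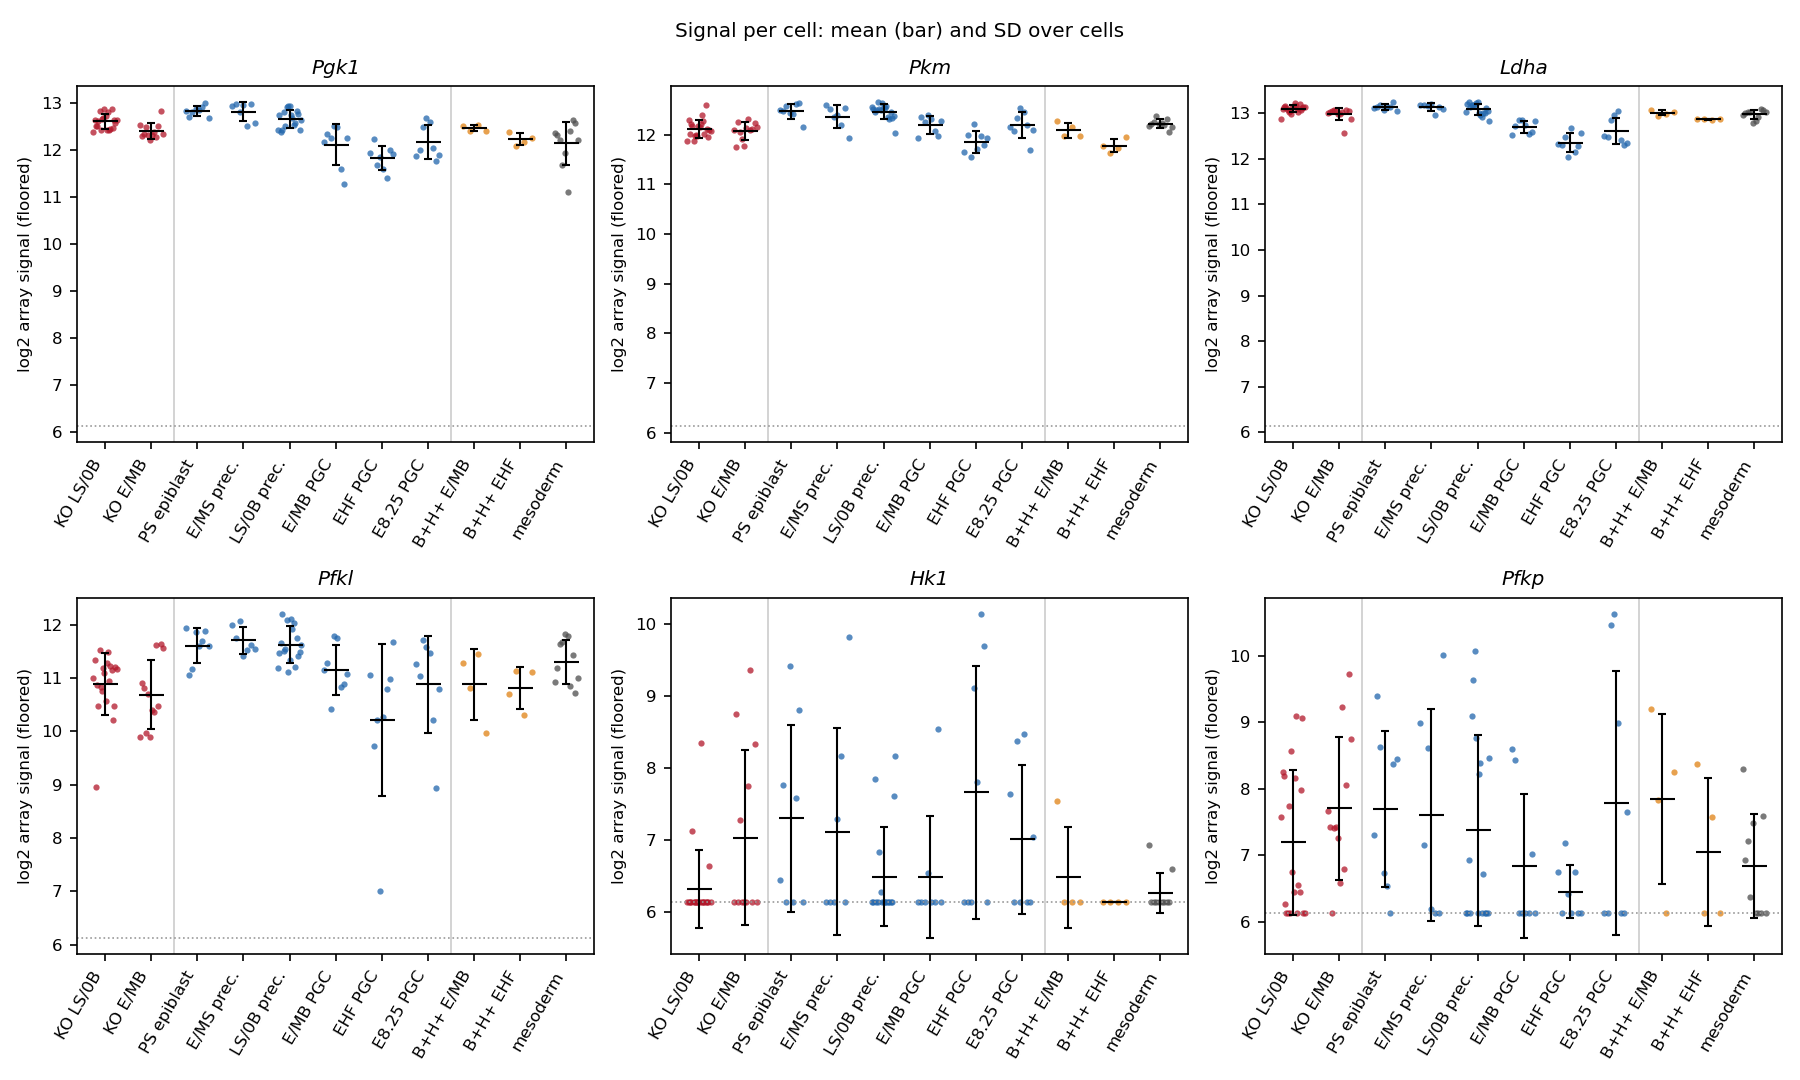
Log2 signal (floored) of Pgk1, Pkm, Ldha, Pfkl, Hk1 and Pfkp in every cell by group, with the mean and SD over cells and the floor as a dotted line; scales differ between panels. Pgk1, Pkm and Ldha form tight bands whose PGC means are lowest at EHF, while Hk1 and Pfkp spread between the floor and about 10.

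Across all cells Pgk1 and Ldha went together (r = 0.74, and 0.47 after group means were removed), and Ldha and Pygl went opposite ways (-0.70, and -0.14 after group means were removed). The second pair therefore differed mostly between groups and hardly among cells of 1 group. The genes most like Pkm were Aldoa (0.77), which encodes an aldolase, 4930448K20Rik (0.69) and Pklr (0.67), and those most like Pfkl were Aldoa (0.59), Tpi1 (0.53) and Sod1 (0.49). For Pgk1 the highest was Vmn1r41 (0.88), a receptor gene of the background set that was detected in 97 cells, followed by Pgam1 (0.77) and Hnrnpa0 (0.71). For Ldha they were Tmem215 (0.90), Prr27 (0.83) and Src (0.82). Whether those probe sets share sequence with Pgk1 or Ldha was not tested. In the order of group means, neighbouring groups differed by more than the larger SD in 1 of 10 pairs for Pygl (E/MB PGCs over LS/0B precursors), 1 for Pgk1, 2 for Ldha and 0 for each of the other 7 genes, so most ranks between groups are not settled.

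Read comparison by comparison, few of the 10 genes passed 1 log2 unit, and the share of all genes doing so is given beside each count. In E8.25 PGCs against PS epiblast 1 gene was higher (Pygl; 4.90% of all genes were) and 1 lower (Hk2; 5.12%), and the median over the list was -0.41, against -0.02 over the 7250 genes that passed the detection limit in 50% of cells or more. All PS epiblast cells had Xist and no E8.25 PGC had, so sex and stage cannot be told apart there. Slc2a3 and Pygl did not overlap, as was true of 1.28% of all genes. In E/MS precursors against PS epiblast 0 genes were higher (2.67%) and 1 lower (Slc2a3; 2.94%), with a median of -0.05. In LS/0B against E/MS precursors 1 was higher (Slc2a3; 1.48%) and 1 lower (Hk2, by 1.5; 1.47%), with a median of -0.06. In E/MB PGCs against LS/0B precursors 2 were higher (Pygl and Slc2a3, 2.96%) and 2 lower (Hk2 and Slc2a1, 2.66%), the largest number of any step. The median was -0.43, against 0.006 over the broadly detected genes. These PGCs were picked for stella and the precursors were not, so for every gene stage and choice of cell cannot be told apart at this step. In EHF against E/MB PGCs 2 were higher (Hk1 and Hk2; 1.92%) and 0 lower (2.25%), with a median of -0.22. In E8.25 against EHF PGCs 1 was higher (Pfkp, 1.71%) and 0 lower (1.53%). The median was 0.30, against 0.016 over the broadly detected genes.

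In E/MB PGCs against mesoderm 2 genes were higher (Pygl and Slc2a3; 8.43%) and 1 lower (Hk2; 3.62%), and the 2 higher ones did not overlap (1.72% of all genes). The list's median was -0.03 where the broadly detected genes had 0.16. Mesoderm arrays also had the brighter controls, and whether this shift belongs to the arrays or to the cells was not tested. In E/MB PGCs against E/MB Blimp1+ Hoxb1+ cells 1 was higher (Pygl; 5.21%) and 3 lower (Hk2, Slc2a1 and, at -1.01, Pfkp; 5.52%). The Pfkp difference was -0.91 when any single one of E/MB PGCs 3, 4, 5, 6 and 8 was left out, and -0.57, -1.59 and -0.88 without Blimp1+ Hoxb1+ cell 1, 3 or 4, whose group had 6.13, 7.83, 8.25 and 9.20. Slc2a3 and Pygl lay wholly above and Ldha wholly below, a separation found in 2.71% of genes. In LS/0B knockout cells against LS/0B precursors 0 genes were higher (1.06%) and 0 lower (0.390%), with a median of -0.17. In E/MB knockout cells against E/MB PGCs 2 were higher (Hk2 and Slc2a1; 4.0%) and 1 lower (Pygl; 3.61%), with a median of 0.28 and no gene free of overlap. The E/MB comparisons with mesoderm, Blimp1+ Hoxb1+ cells and knockout cells share the same 8 PGCs.

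**Figure D5:**
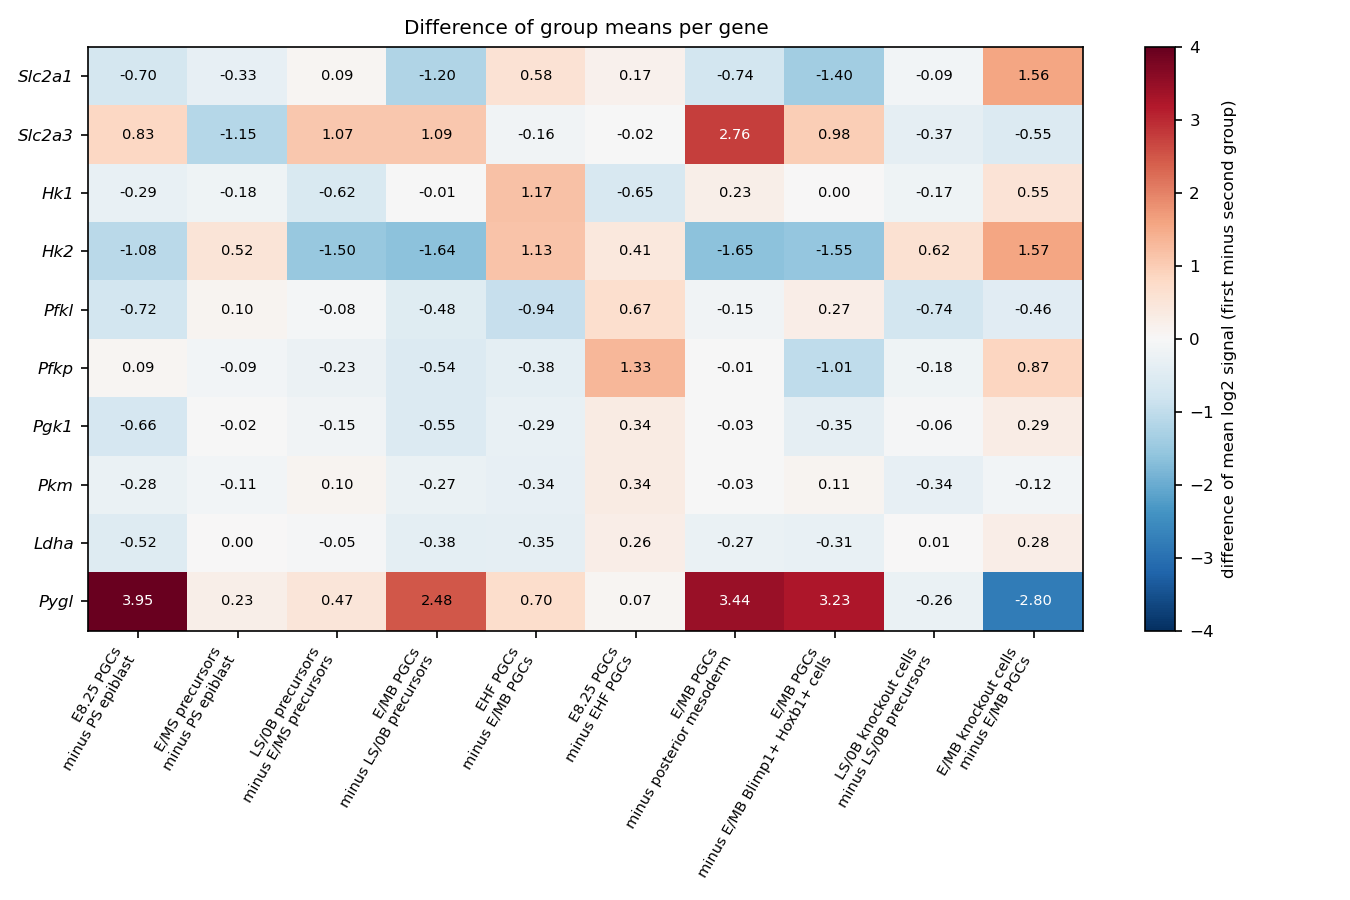
Difference of mean log2 signal between groups (first minus second group named) for the 10 genes in 10 comparisons; red is higher and blue lower in the first group. Pygl is the strongest colour in 4 comparisons of PGCs with other cells and is blue, at -2.80, in E/MB knockout cells against E/MB PGCs.

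Other genes of the same pathways came from a list of 72, of which 64 were measured and 34 were detected in at least 50% of cells. In E8.25 PGCs against PS epiblast 7 were at least 1 log2 unit higher (10.9% of the 64, where 4.90% of all genes were) and 9 lower (14.1%, against 5.12%). The shares are descriptions, since 34 of the 64 genes were detected in at least 50% of cells, against 7250 of the 18193. Of the 18 measured genes of glycogen handling 4 were higher and 0 lower. They were Gyg, which primes glycogen synthesis as glycogenin, at 10.64 ± 0.66 in E8.25 PGCs and 7.31 ± 1.10 in PS epiblast, Phka2, an X-linked regulatory subunit of phosphorylase kinase (+1.46), Gys1, the muscle-type glycogen synthase (+1.12), and Pgm1, a phosphoglucomutase gene (+1.10). All PS epiblast cells had Xist and no E8.25 PGC had, and Phka2 is X-linked. The lower ones of the whole list included Slc16a3, a lactate exporter (-3.20), Myc, a transcription factor of growth (-3.00), Ldhb, the heart-type lactate dehydrogenase subunit (-2.07), and the glycolytic enzyme genes Aldoa (-1.13) and Tpi1 (-1.13).

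At the step from LS/0B precursors to E/MB PGCs 2 list genes were higher (3.12%, against 2.96% of all genes), Phka2 (+1.62) and Gyg (+1.36), and 5 were lower (7.81%, against 2.66%), among them Slc16a3 (-1.40) and Myc (-1.29), which was detected in 0 of 8 E/MB PGCs and 10 of 17 precursors. At E/MS over PS epiblast the counts were 1 higher (1.56%, against 2.67% of all genes) and 0 lower (against 2.94%). At LS/0B over E/MS they were 2 higher (3.12%, against 1.48%) and 3 lower (4.69%, against 1.47%). Within the PGCs they were 2 higher (3.12%, against 1.92%) and 4 lower (6.25%, against 2.25%) at EHF. The 4 lower ones were Ldhb (-1.66), Gaa (-1.53, detected in 0 of 8 EHF and 6 of 8 E/MB PGCs), Slc16a3 (-1.26) and Phka1 (-1.17). Gaa and Phka1 are of the 18 glycogen handling genes, of which 0 were higher at EHF. At E8.25 over EHF they were 1 higher (1.56%, against 1.71%), Gys1 (+1.26, detected in 1 of 8 EHF PGCs), and 1 lower (1.56%, against 1.53%), the glycogen handling gene Phkg2 (-1.11). Against mesoderm E/MB PGCs had 6 higher (9.38%, against 8.43% of all genes), with Gyg 2.46 above mesoderm (8.54 ± 1.31), and 2 lower (3.12%, against 3.62%), Myc and Rpe. Against the E/MB Blimp1+ Hoxb1+ cells 6 were higher (9.38%, against 5.21% of all genes) and 7 lower (10.9%, against 5.52%). The 7 lower ones included Myc (0 of 8 PGCs and 4 of 4 Blimp1+ Hoxb1+ cells) and Hif1a, which encodes a hypoxia-inducible factor (9.85 ± 0.92 in PGCs and 11.16 ± 0.12 in Blimp1+ Hoxb1+ cells). In E/MB knockout cells against E/MB PGCs 1 was higher (1.56%, against 4.0% of all genes), Myc (9.59 ± 1.52 in knockout cells, at the floor in all PGCs), and 4 were lower (6.25%, against 3.61% of all genes), namely Ldhb (-1.31), Gaa, which encodes the lysosomal glycogen-degrading glucosidase (-1.15), Gyg (-1.14) and Phka2 (-1.08). At LS/0B 1 was higher in knockout cells (1.56%, against 1.06% of all genes), again Myc (9.15 ± 1.15 against 7.43 ± 1.28 in precursors), and 3 were lower (4.69%, against 0.390% of all genes): Pgls, Pygb, the brain form of glycogen phosphorylase, and Pklr.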

How the data were processed

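Each array held the PCR-amplified cDNA of 1 cell, picked at random from a dissociated embryo fragment, per the labels' protocols. The deposited values are linear intensity per probe set. Per the submitters' processing notes they are MAS5 output, with version and scaling not given in the sources used here. Of 45101 probe sets, 34945 had 1 gene symbol and were used, and 15.3% of the values equalled 1, the minimum. Background came from 126 receptor and keratin-associated probe sets: their 90th percentile (median over cells) gave the floor, and their 95th, 82.8 to 166 between cells, the detection limit. For each gene the probe set with the highest mean log2 was used. Differences are of group means, computed with Python 3.11.15, numpy 2.4.6 and pandas 2.3.3 and tested on simulated data. The lower bound in fold takes the detection limit for each undetected cell. The genes and the pathway list were chosen with earlier results of these data known. All 10 members are named, pathway genes only where past 1 log2 unit, and the 3 genes most correlated with each member. The number of arrays limits the precision. Alternatives were averaged probe sets, no floor or a higher one, median scaling, quantile normalization, cells without Xist, and each cell left out in turn.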

Additional observations from a re-analysis of the deposited data

Results flagged for a closer look

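Single cells stood far from the rest of their group for 10 of the 78 group values tested, in groups of 4 to 10 cells. Chance flags about 1 in 20 groups where values are normally spread and not held at a floor. Low cells were PS epiblast replicate 2 for Slc2a3 (10.37), PS epiblast replicate 8 for Pkm (12.16), E/MS precursor replicate 5 for Ldha (12.96), EHF PGC replicate 4 for Pfkl (7.00) and E8.25 PGC replicate 7 for Hk2 (6.13, at the floor). High cells were E/MB PGC replicate 7 (8.54) and E/MB Blimp1+ Hoxb1+ replicate 1 (7.54) for Hk1. For Pygl they were PS epiblast replicate 6 (7.70), E/MB Blimp1+ Hoxb1+ replicate 4 (6.98) and EHF Blimp1+ Hoxb1+ replicate 5 (8.24). In the Blimp1+ Hoxb1+ groups the other 3 cells stood at the floor, so any signal above it sets a cell apart. Hk1 in E/MB PGCs and Pygl in PS epiblast likewise had 6 of 8 cells at the floor. The count of flags therefore cannot be set against the 1 in 20. No cause of these values was tested.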

How the results depend on the processing

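All 22 member differences of at least 1 log2 unit kept that size without a floor and under median scaling, 21 under quantile normalization, 19 under a higher floor and 16 when probe sets were averaged; among cells without Xist it was 10 of 13. Hk1 reversed, with -0.35 for EHF against E/MB PGCs in cells without Xist. Without a floor the counts of lower genes became 2 for E8.25 PGCs against PS epiblast, 2 for E/MS precursors against PS epiblast, 2 for LS/0B against E/MS precursors and 1 for LS/0B knockout cells, and 4 genes were higher in E/MB knockout cells. With the higher floor 0 were lower in E8.25 PGCs against PS epiblast and 1 was higher in EHF against E/MB PGCs. With averaged probe sets 0 were lower in E/MS precursors, 0 higher in LS/0B against E/MS precursors, 1 higher in E/MB PGCs against LS/0B precursors, 1 higher in EHF against E/MB PGCs and 0 higher in E8.25 against EHF PGCs. In cells without Xist 0 were higher in LS/0B precursors, 0 in EHF PGCs and 2 in E8.25 PGCs against EHF. Median scaling, which lowers E/MB PGCs by 0.27 relative to mesoderm, gave a median of -0.30 and 2 lower genes there. Leaving out 1 cell at a time, the count of lower genes ranged from 0 to 1 in E8.25 PGCs and in E/MS precursors against PS epiblast and in EHF against E/MB PGCs. It ranged from 1 to 2 in E/MB PGCs against LS/0B precursors and from 2 to 3 against Blimp1+ Hoxb1+ cells. The count of higher genes ranged from 0 to 1 in LS/0B against E/MS precursors and in E8.25 against EHF PGCs. It ranged from 1 to 2 in E/MB PGCs against LS/0B precursors and against Blimp1+ Hoxb1+ cells, from 0 to 2 in EHF against E/MB PGCs and from 2 to 3 in E/MB knockout cells. The Pygl differences of E/MB PGCs from LS/0B precursors, mesoderm, Blimp1+ Hoxb1+ cells and knockout cells kept their direction and a size over 1 in every setting, but their size followed the floor. Without one, Pygl in E/MB PGCs was 6.10 over mesoderm and 5.14 over Blimp1+ Hoxb1+ cells, knockout cells against E/MB PGCs had -4.57, and E8.25 PGCs against PS epiblast had 6.28. With averaged probe sets, of which 2 of 4 saw no signal, Slc2a3 in E/MB PGCs was 1.49 over mesoderm and 0.59 over Blimp1+ Hoxb1+ cells. No paired analysis was possible because no result comes from a test and the replicate numbers name cells of different groups. With 1 sample per group and random loss of rare transcripts in amplification, a cell at the floor is not shown to lack a transcript.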
